A study of Mus musculus with 3 samples.

Results

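The nuclear genes of the mitochondrial ribosome were described in early blood progenitors labelled as deficient in the transcription factor Mef2c and in their controls, and groups are named as labelled. Members were the genes whose array name was Mrpl or Mrps followed by a number, each represented by its brightest probe. They came to 75 of the 22223 genes tested, 46 of them named for the large subunit (Mrpl) and 29 for the small subunit (Mrps). All 75 were measured, and lay well above background in both channels, on all 3 arrays. Each array compared 1 mutant with 1 control sample of mouse bone marrow cells that were negative for lineage markers and positive for c-kit and Sca-1, called multipotent progenitors in the labels. Mutants were Mx1-cre+ Mef2cfl/fl and controls were Mef2cfl/fl, so both carried the floxed Mef2c alleles and only the mutants carried the interferon-inducible Mx1-cre. Mice of both groups had received poly(I:C), a synthetic double-stranded RNA that induces Mx1-cre, at 250 µg on each of 4 days, and marrow was taken 2 days after the last dose. Strain and age of the mice are not given in the sources used here. Each sample held 15000 sorted cells, whose cDNA was amplified by a global PCR.

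Mitochondrial ribosomes translate the few proteins encoded by mitochondrial DNA, all of them core subunits of the oxidative phosphorylation complexes. Their RNA comes from the mitochondrial genome, whereas every protein of the particle is encoded in the nucleus, made in the cytosol and imported. The small subunit reads the mRNA, and the large subunit joins amino acids and feeds the chain into the inner membrane. Many of the proteins descend from those of bacterial ribosomes, and others are found only in mitochondria. Blood stem cells rely largely on glycolysis, and oxidative metabolism is known to increase as progenitors cycle and differentiate.

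The share of probes well above background ranged from 73.4% to 80.4% over the 6 channels, and saturation was absent (0 spots). Ratios are log2 of mutant over control with the sign the labels give, mutant in Cy3 and control in Cy5 on every array. The labels give no dye swap, so dye and genotype cannot be told apart, and neither can Cre itself and the loss of Mef2c. The authors' deposited log2 ratios have the opposite sense on array 2 from that on arrays 1 and 3, so main results are also given with the sign of array 2 turned. The labels do not say whether replicates came from separate animals, and p-values then measure only the spread between these samples. The log2 ratio of Mef2c itself was 0.08, 0.10 and -0.96 on arrays 1, 2 and 3, a mean of -0.26 ± 0.61 (SD, n = 3; limma adjusted p = 0.741), so the probe was lower in the mutant on array 3 only, and without that array the mean was 0.094. Whether that probe lies in the floxed part of the gene is not known.

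With the signs the labels give, mitochondrial ribosomal protein genes were slightly higher in the libraries labelled mutant, on every array and in both subunits. The median log2 ratio of the 75 members was 0.37, a 1.29-fold higher signal, and the quartiles of the members were 0.19 and 0.51. By array the median was 0.49, 0.26 and 0.23 for arrays 1, 2 and 3 (mean 0.33 ± 0.14, SD, n = 3). Over all 22223 genes the median was -0.04, and -0.07, -0.05 and 0.01 on the 3 arrays, so the members' median exceeded that of all genes on each. Among the 12764 genes whose brightness lay within the range of the members, the median was -0.03. The members ranged from -0.31 for Mrpl39 to 0.94 for Mrps22.

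No member passed an adjusted p of 0.05 in limma, and none of the 22223 genes did (0%). The lowest adjusted p of a member was 0.462 and the lowest of any gene 0.461. At an unadjusted p of 0.05, 10 of the 75 members (13.3%) were higher in the mutant, against 4.81% of all genes, and none was lower, against 5.31%. These 10 were Mrpl12, Mrpl14, Mrpl16, Mrpl20, Mrpl33, Mrpl36, Mrpl37, Mrpl47, Mrpl48 and Mrps24. None of the 10 remained without array 1 and no other member passed, while 641 genes were higher and 662 lower over all genes. With each array centred on its median in place of loess 1 member passed. That centring gave 552 genes higher and 2316 lower over all genes, against 1070 and 1180, and a median of all genes of -0.18. The members' median was then 0.25, still above that of all genes, and 0.57, 0.037 and 0.12 on arrays 1, 2 and 3, so that array 2 lay near 0.

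Most members shared 1 direction. Mean ratios were above 0 in 68 of 75 members (90.7%), compared with 45.5% of all genes. On single arrays, 69, 57 and 51 of the 75 lay above 0. Ratios were above 0 on all 3 arrays in 34 members (45.3%; all genes 15.2%) and below 0 on all 3 in 1 (1.33%; all genes 20.2%), which was Mrpl39. In 22 members (29.3%) every mutant level exceeded every control level, against 7.24% of all genes, and in 1 (1.33%) every mutant level lay below, against 11.7%. The 34 members became 20 with median centring, a setting under which the share of all genes above 0 on all 3 arrays was not counted.

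With the sign of array 2 turned, the members' median was 0.17, that of all genes -0.01, and 60 members had a mean above 0. Under that sign the members' median on array 2 was -0.26, and 12 members were above 0 on all 3 arrays. At an unadjusted p of 0.05, 1 of the 75 members was higher, against 337 of the 22223 genes, a similar share. The share of all genes above 0 under that sign was not counted. Array 1 contributed the widest differences: without it the median was 0.23. The library with the highest level was mutant 1 for 40 members, mutant 2 for 14 and mutant 3 for 15, and a control library for the other six. Control 1 was the lowest library for 29 members, control 2 for 19 and control 3 for 13. Relative to each member's own mean over the 6 libraries, the median level was 0.29, 0.05 and 0.12 in the mutants and -0.22, -0.21 and -0.09 in the controls, on the log2 scale. The mutant medians thus lay above all control medians.

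**Figure D1:**
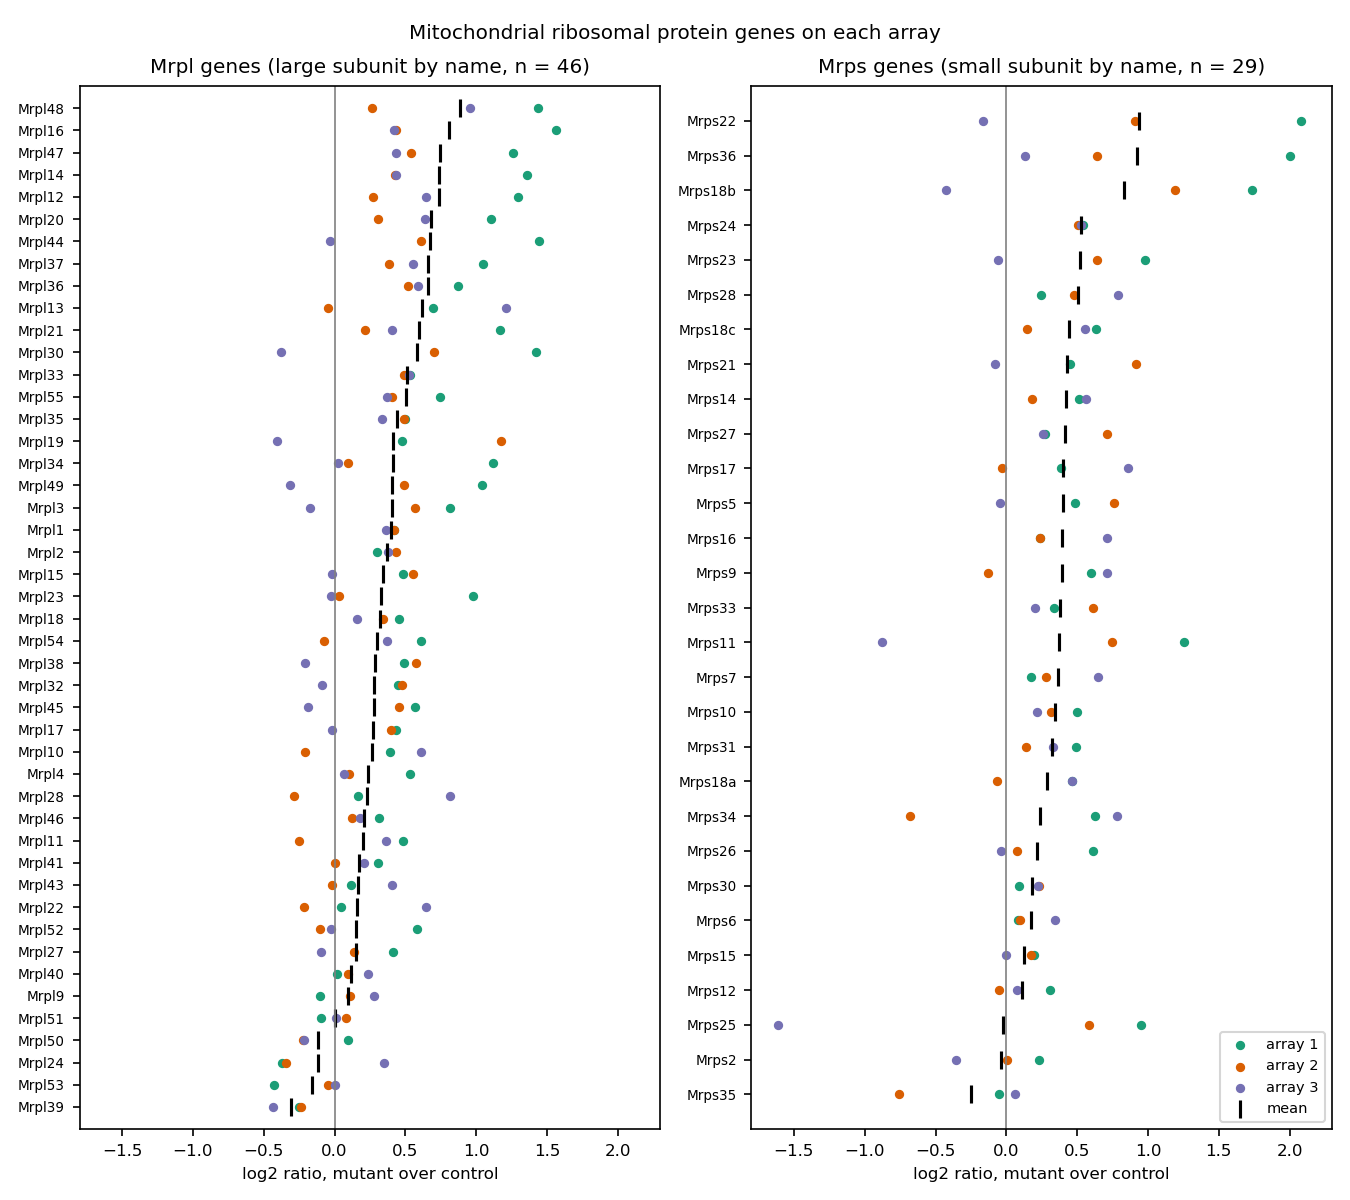
Log2 ratio of mutant over control (x axis) for each of the 75 mitochondrial ribosomal protein genes (rows, sorted by mean), with 1 point per array and a bar at the mean of the 3 arrays; the left panel holds the 46 Mrpl genes and the right panel the 29 Mrps genes. Means lie to the right of 0 for 68 genes, points of array 1 reach furthest right, and Mrpl39 alone lies left of 0 on all 3 arrays.

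Among large-subunit genes, 42 of 46 had a mean above 0, with a median of 0.32 (0.20 without array 1), and 9 were higher at an unadjusted p of 0.05 (4.81% of all genes). Mrpl36, the counterpart of bacterial L36, had log2 signals of 12.68, 12.18 and 12.51 in mutants 1, 2 and 3 and of 11.81, 11.66 and 11.92 in the controls. All mutants exceeded all controls, and the ratio was 0.66 ± 0.19 (SD, n = 3; limma adjusted p = 0.462). Mrpl48, a mitochondria-specific protein of the central protuberance, had signals of 11.18, 10.27 and 11.08 in the mutants and 9.74, 10.01 and 10.12 in the controls. Its mutants again lay above the controls, but mutant 2 only by a small margin, and the ratio was 0.89 ± 0.59 (limma adjusted p = 0.463). Mrpl47, the counterpart of bacterial L29 near the exit tunnel, gave 12.71, 12.20 and 11.86 in the mutants and 11.45, 11.66 and 11.43 in the controls. The groups did not overlap, and its ratio was 0.75 ± 0.45 (limma adjusted p = 0.468).

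Mrpl37, a mitochondria-specific protein, gave 11.89, 11.93 and 12.04 in the mutants and 10.84, 11.55 and 11.48 in the controls. The mutants lay close together above the controls, and control 1 was the low value; the ratio was 0.66 ± 0.34 (limma adjusted p = 0.468). Mrpl12 forms the stalk of the large subunit that recruits translation factors. Its signals were 15.60, 14.87 and 15.03 in the mutants and 14.30, 14.60 and 14.38 in the controls, without overlap, a ratio of 0.74 ± 0.52 (limma adjusted p = 0.473). Mrpl41, a mitochondria-specific protein, differed little, at 12.02, 11.24 and 11.91 in the mutants against 11.71, 11.24 and 11.70 in the controls. Its groups overlapped, and the ratio was 0.17 ± 0.16 (limma adjusted p = 0.757).

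Mrpl39, a mitochondria-specific protein, was the only member that was lower on all 3 arrays. Its signals were 12.27, 12.51 and 12.27 in the mutants and 12.52, 12.75 and 12.71 in the controls. Every mutant lay below every control, by little, and the ratio was -0.31 ± 0.11 (SD, n = 3; limma adjusted p = 0.590). The other large-subunit genes with a mean below 0 were Mrpl24 (-0.12), Mrpl50 (-0.12) and Mrpl53 (-0.16), each above 0 on 1 array.

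**Figure D2:**
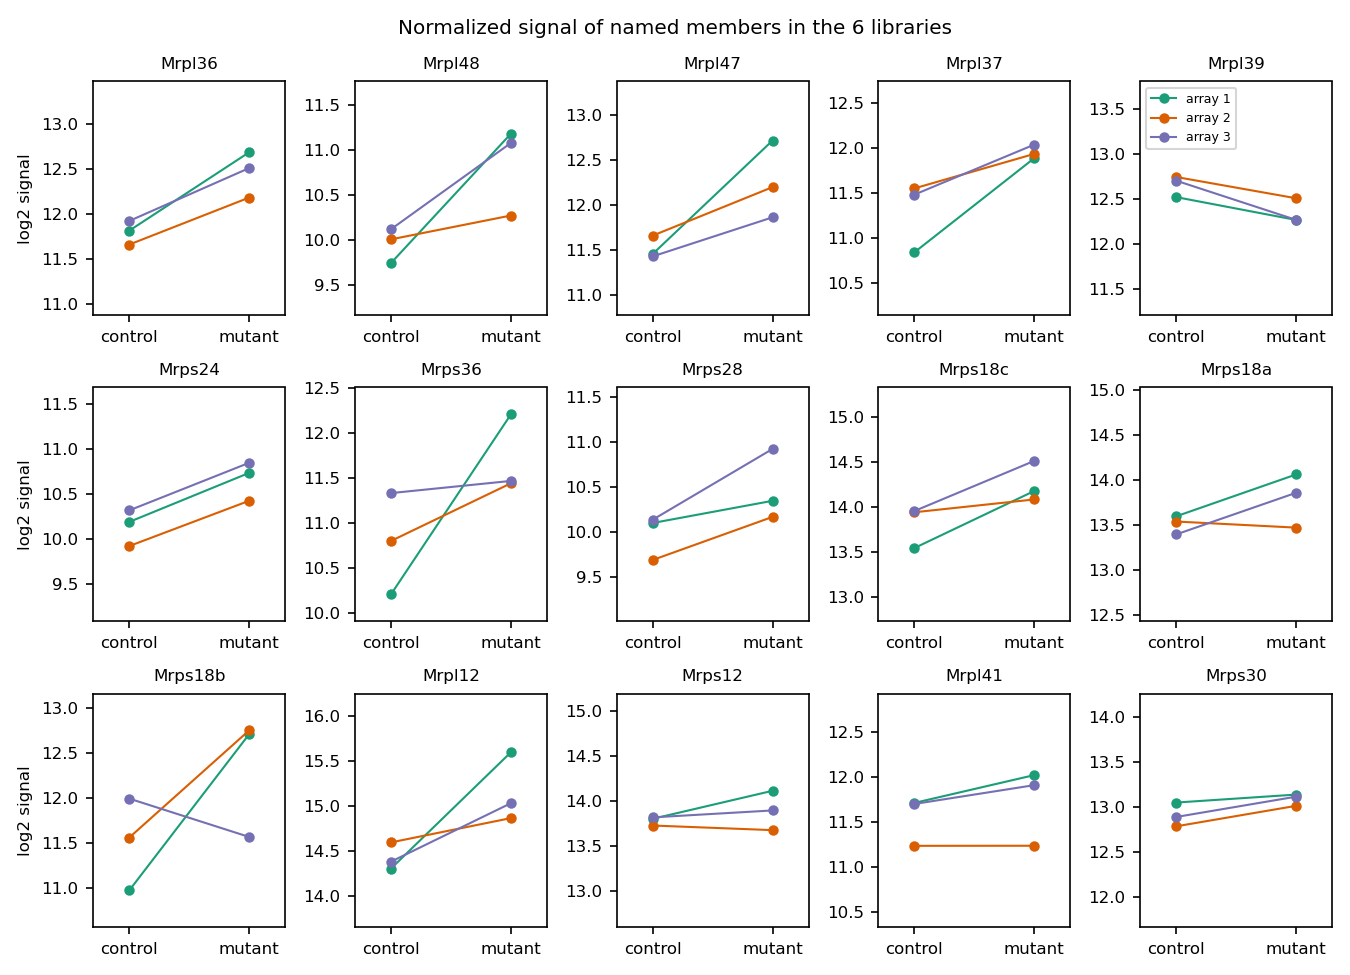
Normalized log2 signal (y axis, a span of the same height in each panel) of 15 named members in the control and mutant library of each array, with a line joining the libraries of 1 array. Lines run upward on all 3 arrays for Mrpl36, Mrpl48, Mrpl47, Mrpl37, Mrps24, Mrps36, Mrps28, Mrps18c, Mrpl12 and Mrps30, are flat on array 2 for Mrpl41, run downward for Mrpl39 and differ in direction for Mrps18a, Mrps18b and Mrps12.

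Among small-subunit genes, 26 of 29 had a mean above 0, with a median of 0.38, and 1 was higher at an unadjusted p of 0.05 (4.81% of all genes). That gene was Mrps24, the counterpart of bacterial S3, with signals of 10.74, 10.43 and 10.85 in the mutants and 10.19, 9.92 and 10.32 in the controls. Each mutant exceeded its own control by nearly the same step, with ratios of 0.54, 0.50 and 0.53 (mean 0.53 ± 0.02, SD, n = 3; limma adjusted p = 0.481). Mrps28, the counterpart of bacterial S1, had 10.35, 10.17 and 10.93 in the mutants and 10.10, 9.69 and 10.14 in the controls. Its groups did not overlap, and the ratio was 0.50 ± 0.27 (limma adjusted p = 0.5003). Mrps12, the counterpart of the decoding-centre protein S12, had 14.12, 13.68 and 13.90 in the mutants and 13.80, 13.73 and 13.82 in the controls. The groups overlapped, and the ratio was 0.11 ± 0.18 (limma adjusted p = 0.846).

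Mice have 3 genes related to bacterial S18, and their probes differed in how far the arrays agreed. Mrps18c had 14.17, 14.08 and 14.51 in the mutants and 13.54, 13.94 and 13.95 in the controls, without overlap, and a ratio of 0.44 ± 0.26 (limma adjusted p = 0.515). Mrps18a had 14.06, 13.47 and 13.86 in the mutants and 13.60, 13.54 and 13.39 in the controls. Its mutant 2 lay below its own control, and the ratio was 0.29 ± 0.31 (limma adjusted p = 0.640). Mrps18b had 12.71, 12.75 and 11.57 in the mutants and 10.97, 11.56 and 11.995 in the controls, a higher mutant on arrays 1 and 2 and a lower one on array 3. Its ratio was 0.83 ± 1.12 (limma adjusted p = 0.523), a spread wider than the mean.

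A pair of further Mrps genes have products that later work placed outside the small subunit. Mrps30 encodes a protein of the large subunit and had 13.14, 13.02 and 13.12 in the mutants against 13.05, 12.79 and 12.89 in the controls. The mutant was the higher on each array, the groups overlapped, and the ratio was 0.18 ± 0.08 (limma adjusted p = 0.741). Mrps36 is now known as a subunit of the alpha-ketoglutarate dehydrogenase complex, an enzyme of the citric acid cycle. Its signals were 12.21, 11.44 and 11.47 in the mutants and 10.21, 10.80 and 11.33 in the controls. The groups did not overlap, but the ratio ran from 2.0 on array 1 to 0.14 on array 3 (mean 0.93 ± 0.96; limma adjusted p = 0.494).

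Several of these values depended on 1 array or on the scaling. Without array 1, Mrpl12 was 0.46, Mrpl47 0.49, Mrps36 0.39, Mrps18b 0.38, Mrpl41 0.11 and Mrps12 0.013. Without array 2, Mrps18a was 0.46, and without array 3, Mrps18b was 1.46. With median centring Mrps24 was 0.33, Mrps28 0.30, Mrps30 0.11 and Mrpl41 0.07, and with array 2 turned the named members ran from 0.03 (Mrps30) to 0.71 (Mrpl48), with Mrpl39 at -0.15. The named members kept their sign in each of these cases.

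Large and small subunit genes had similar medians on each array. The median of the large subunit minus that of the small was 0.0090, 0.032 and 0.041 on arrays 1, 2 and 3 (mean 0.027 ± 0.017, SD, n = 3), while the difference between the medians of the gene means was -0.058, of the opposite sign. With Mrps18a and Mrps30 counted in the large subunit, where structures place them, and Mrps36 left out, the array differences were -0.0037, -0.011 and 0.049 (mean 0.011 ± 0.033, SD, n = 3). With 3 arrays a two-sided sign permutation test cannot go below p = 0.25, so the difference was not tested. Without array 3 the difference between medians was 0.095, and without array 1 it was -0.097. Its sign thus turned with the array left out.

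The origin of the proteins was also followed. Large-subunit genes with a bacterial counterpart had a median of 0.40 (0.26 without array 1), with 28 of 29 above 0 (45.5% of all genes) and 7 higher at an unadjusted p of 0.05 (4.81% of all genes). Those found only in mitochondria had a median of 0.21, with 14 of 17 above 0 and 2 higher. Array medians were 0.50, 0.34 and 0.36 with a counterpart and 0.49, 0.093 and 0.013 without, so the lists were close on array 1. Among genes named for the small subunit the medians were 0.39 with a bacterial counterpart (17 of 18 above 0, 1 higher) and 0.32 without (9 of 11 above 0, none higher). Their array medians were 0.46, 0.21 and 0.40 with a counterpart and 0.61, 0.58 and 0.14 without, so the order was reversed on arrays 1 and 2. These lists go by name, with Mrps18a among the 18 and Mrps30 and Mrps36 among the 11. These are descriptions of gene lists, and the differences between them were not tested.

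Agreement between arrays differed from member to member. The SD over the 3 arrays was under 0.1 in 8 members and above 1 in 4, with a median of 0.34 compared with 0.40 over all genes. Mrpl33, the counterpart of bacterial L33, was among the tight ones, with ratios of 0.53, 0.49 and 0.53 (mean 0.52 ± 0.02). The 4 with a wide spread were Mrps11, Mrps18b, Mrps22 and Mrps25, all of the small subunit. In each of these 4 the ratio was highest on array 1 and below 0 on array 3. Mrps22 had 2.08, 0.91 and -0.17, Mrps11 had 1.25, 0.74 and -0.88, and Mrps25 had 0.95, 0.58 and -1.61. Another probe of Mrps25 had a mean of 0.53 against -0.03. Mrpl33, Mrps11, Mrps22 and Mrps25 were chosen after their values were seen.

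Across the 75 members, ratios on arrays 1 and 2 correlated at a Pearson r of 0.52 (Spearman 0.48). Arrays 1 and 3 gave -0.11 (Spearman -0.04), and arrays 2 and 3 gave -0.37 (Spearman -0.34). Over all genes the Pearson values were 0.31, 0.13 and 0.04. Members are not independent replicates, and each ratio shares its array's libraries, dyes and normalization with the other members on it. So the members were above 0 as a group on each array as labelled. The order among them on array 3 did not follow that on the other arrays.

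A second reading came from probes not used above. Other kept probes existed for 31 members, 47 in all. Their mean was above 0 in 25 of the 31, with a median of 0.27, where the probes used gave 28 and 0.32. The sign was the same in 22, and the median size of the difference between the readings was 0.14. Chosen after their values were seen, Mrpl50 had -0.12 with the probe used and 0.84 with its other probe, and Mrpl3 had 0.40 with the probe used and -0.75 with 1 of its 3 others.

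Promoter sequences were set beside these values because mitochondrial genes of the nucleus are known targets of NRF-1, of the ETS factor GABP and of YY1. RefSeq's table (GRCm38.p6) held 66 of the 75 members, from 250 bases before the transcription start to 50 after it, matched by symbol. Stretches of 200 bases before the start are shown for 4 genes on the gene's strand, with motif matches in capitals. Shown are the large-subunit gene with the smallest p (Mrpl36) and a gene with both an ETS and an NRF-1 match (Mrpl22). The others are a small-subunit gene with matches (Mrps18c) and the gene that was lower (Mrpl39). All 4 hold a match, whereas the same stretch held none in Mrps24, the small-subunit gene with the smallest p, or in Mrps36, Mrps18b, Mrpl47 and Mrpl1. Mrpl36 lies at chr13:73330809-73331008 (plus strand), with an E-box and a YY1 match. Mrpl22 lies at chr11:58171464-58171663 (plus strand), with an ETS and an NRF-1 match. Mrps18c lies at chr5:100798559-100798758 (plus strand), with an E-box and an ETS match. Mrpl39 lies at chr16:84735245-84735444 (minus strand), with an NRF-1 match that reads the same on both strands.
Mrpl36: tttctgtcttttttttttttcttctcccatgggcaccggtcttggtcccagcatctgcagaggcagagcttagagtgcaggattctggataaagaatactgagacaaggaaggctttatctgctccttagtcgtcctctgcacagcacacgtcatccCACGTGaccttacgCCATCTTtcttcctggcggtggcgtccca
Mrpl22: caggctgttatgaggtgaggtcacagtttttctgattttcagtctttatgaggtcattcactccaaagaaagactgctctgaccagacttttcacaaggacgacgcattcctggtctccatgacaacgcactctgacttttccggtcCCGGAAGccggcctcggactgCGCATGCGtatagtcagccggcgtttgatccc
Mrps18c: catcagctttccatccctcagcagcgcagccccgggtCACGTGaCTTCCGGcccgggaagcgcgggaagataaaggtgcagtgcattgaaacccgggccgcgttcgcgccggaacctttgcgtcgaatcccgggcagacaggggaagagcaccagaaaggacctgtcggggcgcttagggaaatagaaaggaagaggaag
Mrpl39: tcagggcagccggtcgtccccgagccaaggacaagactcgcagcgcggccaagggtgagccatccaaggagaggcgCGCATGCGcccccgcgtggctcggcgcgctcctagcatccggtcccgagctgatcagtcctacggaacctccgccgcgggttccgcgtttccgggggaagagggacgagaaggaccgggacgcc

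Motifs were searched on both strands in the whole window, as exact letters except for MEF2, which was a pattern with alternative letters. The ETS letters CCGGAAG were in 24 of 66 members (36.4%), against 15.8% of the 13437 tested genes in the table. The NRF-1 letters GCATGCG were in 8 members (12.1%), against 5.87%, and the YY1 letters AAGATGG in 12 (18.2%), against 7.80%. The E-box CACGTG, bound by Myc among others, was in 5 members (7.58%), against 10.4%. The ETS and YY1 letters can share AAG, and of the 4 members that hold both, 0 hold them in overlapping letters. The MEF2 pattern was YTAWWWWTAR, where Y is C or T, W is A or T and R is A or G. It was in 2 members (3.03%), Mrpl1 and Mrpl48, against 2.60% of the tested genes in the table. Members with and without a match had median ratios of 0.39 and 0.37 for ETS, 0.27 and 0.39 for NRF-1 and 0.39 and 0.36 for YY1. For the E-box the medians were 0.66 over 5 members and 0.34 over 61, and for MEF2 0.64 over 2 and 0.37 over 64, none of which was tested. A match is a run of letters and not a measured site.

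The other lists of mitochondrial translation genes had medians of the genes' means above 0 but below that of the members, though not on every array. Of 8 tested genes for mitoribosomal proteins under other names, 7 had a mean above 0, with a median of 0.17 (array medians 0.35, 0.0081 and 0.34), and none had an unadjusted p under 0.05. Chchd1, a small-subunit protein, had ratios of 0.55, 0.35 and 0.47 (mean 0.46 ± 0.10, SD, n = 3; limma adjusted p = 0.502). Gadd45gip1, a large-subunit protein, had 0.66, 0.17 and 0.54 (mean 0.46 ± 0.25; limma adjusted p = 0.508). Both were above 0 on all 3 arrays, but with the mean of all its kept probes Gadd45gip1 was 0.21.

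Of 11 translation factor genes tested, 8 had a mean above 0, with a median of 0.13, which was 0.043 without array 1, and 1 was higher at an unadjusted p of 0.05 (4.81% of all genes). That was Tsfm, which recharges the elongation factor Tufm, with 1.06, 0.04 and 1.19 (mean 0.77 ± 0.63; limma adjusted p = 0.481). The elongation factor gene Gfm1 had 0.83, 0.38 and 0.28 (mean 0.50 ± 0.30; limma adjusted p = 0.502). Neither passed the adjusted test, and with the mean of all its probes Gfm1 was 0.85. The array medians of these factors were 0.43, -0.10 and 0.23, below 0 on array 2. Of 17 aminoacyl-tRNA synthetase genes, whose products charge mitochondrial tRNAs, 12 had a mean above 0, with a median of 0.23, and 2 were higher at an unadjusted p of 0.05. These were Hars2, with 0.98, 0.91 and 0.38 (mean 0.76 ± 0.33; limma adjusted p = 0.462), and Yars2, with 0.74, 0.38 and 0.88 (mean 0.67 ± 0.26; limma adjusted p = 0.468; 0.42 with the mean of all probes). The array medians of the synthetases were 0.34, 0.19 and 0.35.

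Assembly and RNA synthesis lists held no gene with an unadjusted p under 0.05. Of 23 assembly and rRNA modification genes, 17 had a mean above 0, with a median of 0.11 and array medians of 0.30, -0.14 and 0.29. Tfb1m, which methylates the rRNA of the small subunit, had 0.30, 0.30 and 0.64 (mean 0.42 ± 0.20; limma adjusted p = 0.520), and the assembly factor gene Mpv17l2 had 1.32, -0.29 and 1.14 (mean 0.72 ± 0.88; limma adjusted p = 0.516). Tfb1m was thus above 0 on every array and Mpv17l2 was not. Of 13 genes of mitochondrial transcription and mRNA, 9 had a mean above 0, with a median of 0.15 (0.093 without array 1) and array medians of 0.12, 0.063 and 0.11. Tfb2m, an initiation factor, had 0.87, 0.21 and 0.32 (mean 0.47 ± 0.35; limma adjusted p = 0.516), and the elongation factor gene Tefm had 1.47, 0.71 and -0.23 (mean 0.65 ± 0.85; limma adjusted p = 0.533). With the mean of all kept probes Tfb2m was 0.29 and Tefm 0.20, so both depended on the probe.

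Among 10 nuclear regulators of mitochondrial genes the median was 0.06, with array medians of 0.15, 0.35 and 0.018, and 6 had a mean above 0. Yy1 was the 1 regulator higher at an unadjusted p of 0.05, with 0.66, 0.40 and 0.63 (mean 0.56 ± 0.14, SD, n = 3; limma adjusted p = 0.475). The log2 signals of Yy1 were 12.81, 12.53 and 12.82 in the mutants and 12.14, 12.13 and 12.19 in the controls, without overlap, but the mean of all kept probes of Yy1 gave 0.15 (limma adjusted p = 0.767). The coactivator gene Ppargc1b had 2.22, 0.25 and 0.21 (mean 0.89 ± 1.15; limma adjusted p = 0.514), which was 0.23 without array 1.

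Other gene groups set the members in context. Nuclear genes for oxidative phosphorylation subunits resembled the members, with a median of 0.29 over 77 genes, array medians of 0.41, 0.21 and 0.26, and 69 genes above 0. Cytosolic ribosomal protein genes lay on the other side, with a median of -0.21 over 78 genes and array medians of -0.15, -0.36 and -0.26. In that group 60 of 78 genes had a mean below 0 and 17 were lower at an unadjusted p of 0.05 (5.31% of all genes). With array 2 turned its median was -0.04. The members exceeded the cytosolic group on each array as labelled, a comparison of gene lists that was not tested.

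**Figure D3:**
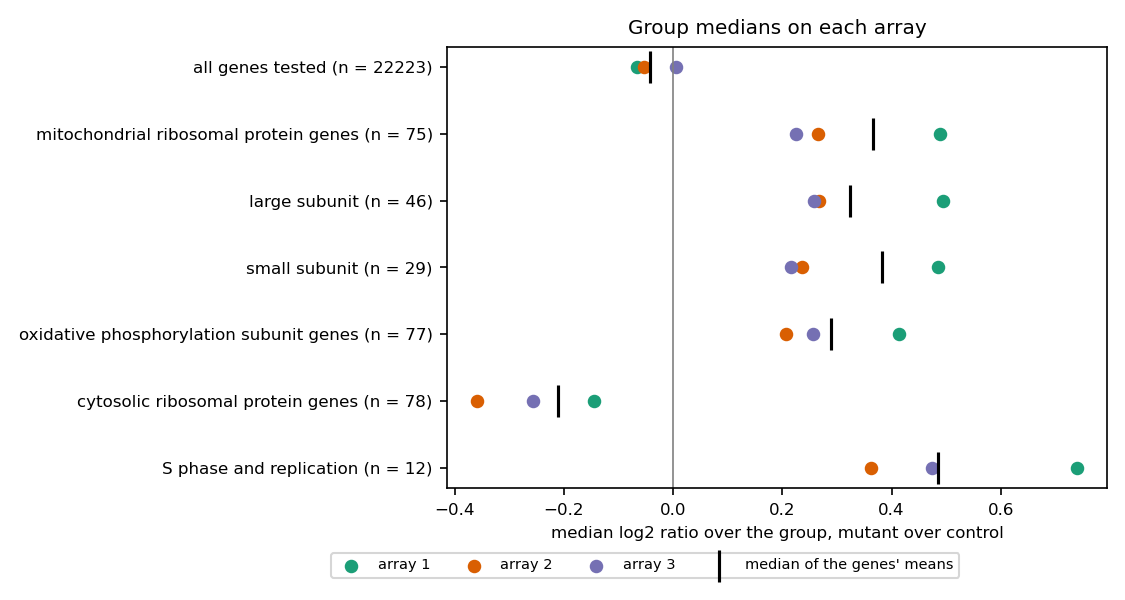
Median log2 ratio of mutant over control (x axis) over each gene group on each array (points) and of the genes' means (bars). Medians of the mitochondrial ribosomal, oxidative phosphorylation and S phase groups lie right of 0 on all 3 arrays, and those of cytosolic ribosomal protein genes lie left of 0.

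Markers of cell state and of other cells also differed between the groups. The 12 S phase and replication genes, which mark cycling cells, all had ratios above 0 on all 3 arrays, with a median of 0.48 and array medians of 0.74, 0.36 and 0.47. The log2 of their summed linear signal was 17.30 to 17.50 in the mutants and 16.86 to 16.94 in the controls. In such a sum the brightest genes weigh most. The 10 immediate early genes, induced by handling and stress, all had means below 0, with array medians of -5.42, -0.48 and -0.03. The log2 of their summed signal was 16.09 to 16.99 in the mutants and 17.09 to 19.05 in the controls, control 1 being the highest. The part of these genes in the members' difference was not tested.

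Of 9 neutrophil markers, 7 had means below 0, with array medians of -2.89, 0.44 and -1.22. The log2 of their summed signal was 13.80 to 14.15 in the mutants and 13.82 to 16.64 in the controls, again highest in control 1. The members' median ratio was also widest on array 1, and without that array it was 0.23. For the lineage antibody target genes the log2 of summed signal was 11.46 to 11.82 in mutants and 12.15 to 12.52 in controls. Of these 6 genes, 5 were tested (Ly6g was not). T cell markers gave 12.52 to 12.74 and 12.96 to 13.20 (7 of 7 tested), and for neither list did the sums overlap. Both lists hold Cd3d, Cd3e and Cd3g, so they are not separate readings. Means were below 0 in 4 of 5 lineage genes and in 7 of 7 T cell markers. In each list 2 genes were below 0 on all 3 arrays, against 20.2% of all genes. Erythroid markers gave 13.58 to 14.88 and 14.13 to 15.41 (7 of 9 tested), and B cell markers 13.31 to 14.13 and 13.43 to 13.69 (6 of 7 tested). Macrophage markers gave 13.91 to 14.19 in the mutants and 13.71 to 13.84 in the controls, over 9 of 10 tested. Those sums did not overlap either, with the mutants higher. By gene, 6 macrophage markers had a mean above 0 (45.5% of all genes) and 3 below. Their median ratio was 0.22, and -0.08 without array 1. Among the markers tested, Cd3d, Retnlg, Axl and C1qc were not well above background in every library. The 5 genes of the sorted phenotype, Kit, Ly6a, Flt3, Cd34 and Cd48, were all well above background in every library. The log2 of their summed signal was 15.53 to 16.04 in the mutants and 15.53 to 15.74 in the controls. Single genes of this list did not move alike. Their mean ratios ran from -1.15 to 0.82, 2 above 0 and 3 below, with a median of -0.29. In bulk samples, fewer cells of a type and less RNA per cell cannot be told apart, and the part of these markers in the members' difference was not tested.

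**Figure D4:**
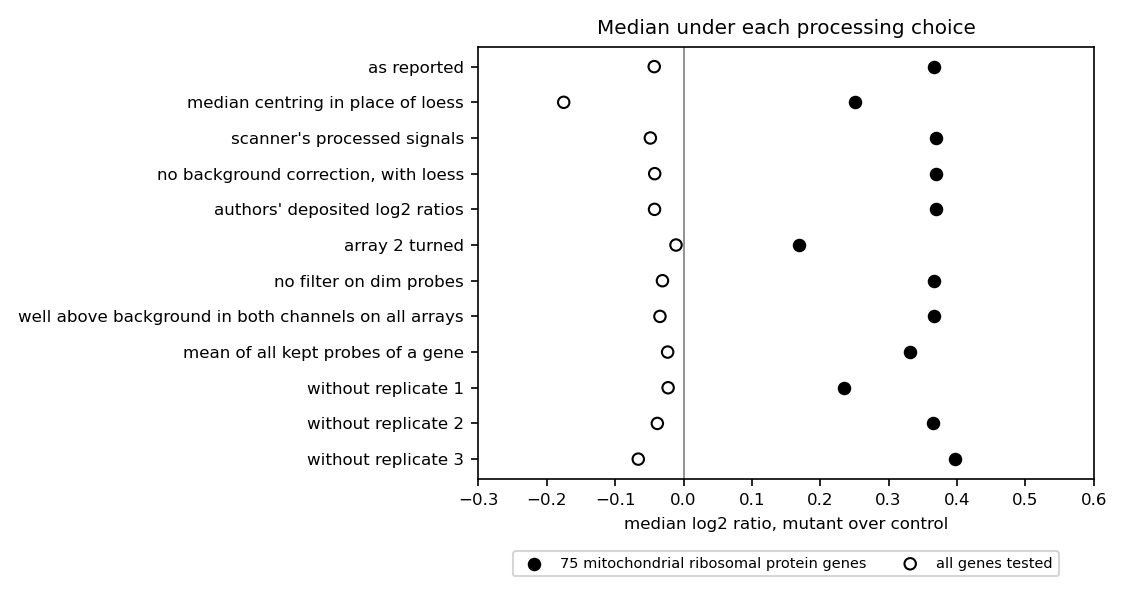
Median log2 ratio of mutant over control (x axis) of the 75 mitochondrial ribosomal protein genes (filled points) and of all genes tested (open points) under each processing choice (rows). The members' median lies between 0.17, with array 2 turned, and 0.40, without replicate 3, and is above that of all genes in every row. In the row of the authors' deposited log2 ratios the sign of each array was set to follow the labels.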

How the data were processed

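The data are 2-colour Agilent arrays, 3 in number, each with a sample labelled Mef2c-deficient and a control sample. The authors' scanner files hold spot intensity on a linear scale from Agilent Feature Extraction 9.5.1.1, as their headers state. Per the file headers they also carry Cy5 over Cy3 as log10. The authors' own log2 ratios were deposited, with 201 empty rows per column; the submitters' processing notes name limma, and how they were normalized is not known. Its columns correlated with the scanner's Cy5 over Cy3 at -0.947, 0.935 and -0.939 on arrays 1, 2 and 3, so the column of array 2 runs opposite; whether its dyes were swapped or its column was turned is not known. The column medians were -0.0148, 0.0129 and -0.00249. These columns served as an alternative only, with the sign of each column set to follow the labels. The opposite sign of the array 2 column was thus not kept in that alternative, and is met only by the one with array 2 turned.

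Mean foreground and median background were corrected with limma's normexp (offset 50) and normalized by loess within arrays, with control spots at weight 0 and then left out. Outlier spots (300, 331 and 252) were left out. Levels of single libraries were also normalized between arrays by Aquantile. Of 41174 probes, 32911 were kept, being measured on 2 or more arrays and exceeding background well in 1 channel on 2 or more. Names came from RefSeq accessions (23075 probes), symbols (6582), synonyms (3077) or the file (8440). The probe with the highest mean log2 intensity stood for a gene. Ratios were tested against 0 with lmFit and eBayes (limma 3.58.1, R 4.3.3), with Benjamini-Hochberg adjustment over 22223 genes, and the fit was tested on simulated data. The number of arrays, 3, limits the precision.

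The members and gene lists were chosen with earlier results of these data known. Named members were, per subunit and direction, the 4 smallest p-values among those of 1 sign on all 3 arrays, with Mrpl12, Mrpl41, Mrps12, Mrps30, Mrps36, the Mrps18 genes and Mef2c added; of other mitochondrial lists, the 2 smallest p-values. Alternatives changed the background correction, normalization, source and sign of ratios, filter, probe choice, subunit assignment and arrays used.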

Additional observations from a re-analysis of the deposited data

How the results depend on the processing

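The median of the 75 members stayed above 0 under every alternative run, between 0.17 with array 2 turned and 0.40 without array 3. No gene passed an adjusted p of 0.05 in limma under any of them, while 1070 and 1180 genes had an unadjusted p under 0.05. With array 2 turned, both subunit medians were 0.17, their difference was 0.0018, and the unadjusted counts were 337 genes higher and 308 lower; 12 members were above 0 on all 3 arrays, none below, and 1 was higher at that p. With median centring, 1 member and 552 genes were higher and 2316 genes lower, with 20 members above 0 and 3 below 0 on all 3 arrays. Under neither setting was the share of all genes of 1 sign on all 3 arrays counted. Leaving out 1 array at a time gave 0 to 12 members higher, 641 to 1354 genes higher and 662 to 1377 lower, and a difference of large minus small medians from -0.097 to 0.095. That difference was -0.040 with the scanner's processed signals, -0.023 with the mean of all probes and -0.078 by structure; causes were not tested. Mef2c was 0.13 with the mean of all probes, of the opposite sign, and -0.44 to 0.094 with 1 array left out. A block for slide could not be run, since the arrays lay on 1 slide, and counts over all 3 arrays have no value when 1 is left out. The ratios pair mutant and control within each array, so no further replicate block was fitted. All 75 members were well above background, and the number of arrays, 3, limits precision; probe choice and normalization also moved values.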
